A study of Saccharomyces cerevisiae with 8 samples.

Results

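The heat shock chaperone genes described here are 10 of the 7126 features counted in this series. They were chosen by gene identifier, and the rule used no measured value, though earlier results of these data were known. They are HSP104 (YLL026W), HSP78 (YDR258C), HSP26 (YBR072W), HSP42 (YDR171W), SSA1 (YAL005C), SSA2 (YLL024C), SSA3 (YBL075C), SSA4 (YER103W), HSP82 (YPL240C) and HSC82 (YMR186W). Of these, 7 are known as stress-induced genes, SSA2 and HSC82 as constitutive genes, and SSA1 as both. All 10 passed the filter on low counts. The study sequenced RNA of 50 to 100 nt from budding yeast grown in the rich medium YPD, in 8 libraries. The 4 groups of 2 libraries were an untreated wild-type strain (WT), WT given 100 nM rapamycin for 30 min, an untreated strain with the mutant allele ubc9-1, and ubc9-1 given the same rapamycin treatment. UBC9 encodes the enzyme that conjugates the small protein SUMO to its targets, and rapamycin inhibits TORC1, the kinase complex that couples growth to nutrients. The growth temperature was not given in the sources used here. From the series title, the study asks how TORC1 acts through SUMO on RNA polymerase III. The chaperone mRNAs are a by-product of that measurement, and they are far longer than the RNA selected, so each count is a fragment of a message. The amount of a message and its breakdown into fragments of that size cannot be told apart, nor can fewer cells and less RNA per cell.

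Chaperones bind unfolded proteins and help them to fold, to stay soluble or to be taken out of aggregates. In yeast, heat and other stress raise the transcription of many of them through the heat shock factor Hsf1, which binds heat shock elements, and through Msn2 and Msn4, which bind stress response elements. The cytosolic Hsp70 and Hsp90 families each pair constitutive genes with stress-induced ones that encode closely related proteins, so their balance is often read as a sign of stress.

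The libraries held 14304014 to 21061460 assigned counts. The chaperone genes took a mean of 0.0704% ± 0.0178 (SD, n = 2) of them in WT without rapamycin and 0.156% ± 0.0561 with it. In ubc9-1 their mean share was 0.143% ± 0.0568 without and 0.130% ± 0.00135 with rapamycin. Values below are shares of the library's counts in CPM (counts per 1e+06) after TMM scaling between libraries, unless another unit is named. Every pair of replicates differed by more than sampling noise, since chi-square over its degrees of freedom was 51.2 to 273 across all features. The first untreated library of each strain had the higher CPM of the pair for 9 of the 10 genes in WT and for 8 of 10 in ubc9-1. The first library was also the higher one for 9 of 10 in treated ubc9-1, and for 3 of 10 in treated WT. The first untreated libraries of both strains had the lowest TMM factors, 0.695 and 0.719 against 0.922 to 1.37 in the others. The part of these differences in the results was not tested. The labels do not say whether replicates were separate cultures, so the p-values cover no more than the spread among these libraries, and that spread may be technical.

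The strains also differed at genes outside the chaperones. The UBC9 message had 2 and 74 counts in WT before rapamycin and 79 and 114 after it, against 307 and 554 before and 221 and 298 after in the mutant. Untreated ubc9-1 was higher by 3.27 on the log2 scale (SE 0.645, edgeR adjusted p = 0.0198). The auxotrophic marker genes ADE2, HIS3 and TRP1 were each higher in ubc9-1 than in WT, with and without rapamycin, by edgeR adjusted p-values of 9.07e-05 to 0.0110. The ubc9-1 allele and these other strain differences cannot be told apart in any comparison of strains. The markers also differed within WT: ADE2 had 14 and 9 counts untreated and 0 in both treated libraries, and HIS3 rose by 1.09 after rapamycin (SE 0.315, edgeR adjusted p = 0.0262). What these marker differences within WT mean for its rapamycin comparison was not tested.

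Levels between genes were compared as CPM per kilobase of gene. In untreated WT the order ran from SSA2, an Hsp70 made in all conditions, at 125 ± 0.228 (SD, n = 2), through HSC82, the constitutive Hsp90, at 107 ± 21.0, to SSA1 at 74.0 ± 7.77, HSP82, the stress-induced Hsp90, at 41.2 ± 5.02 and HSP104 at 30.4 ± 12.2. SSA4 and SSA3, the stress-induced Hsp70 genes, were at the bottom with 5.58 ± 3.86 and 4.96 ± 3.12. The libraries of the top 4 genes did not overlap, whereas those of HSP82 and HSP104, and of all neighbours from HSP42 downwards, did. HSC82 and SSA2 held the top places and SSA4 and SSA3 the bottom places in all 4 groups. In untreated ubc9-1, HSC82 had 184 ± 53.5, SSA2 149 ± 25.9, SSA1 133 ± 26.8 and HSP82 119 ± 6.30 per kilobase, and each overlapped its neighbour in that order. HSP82 thus overlapped SSA1 in untreated ubc9-1 and lay below it without overlap in untreated WT. In both treated groups HSP82 also lay below SSA1 without overlap, narrowly so in ubc9-1 (at most 108 against at least 109).

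SSA1 and SSA2 are so alike that reads cannot always be assigned to one of them, and each alignment of a read with several was counted, per the file headers. Their coding sequences were 96.4% identical, and 57.9% of the 50-nt windows of SSA1 occur in SSA2 as well. Pairs of coding stretches at the same aligned place are shown as examples of how alike the copies are. Capitals mark the bases at which a pair differs. The SSA1 and SSA2 stretches (R64, chrI:141072-141131 and chrXII:97126-97185, both minus strand, coding bases 301 to 360 of each) had no difference. The HSP82 stretch (chrXVI:97582-97641, minus strand, coding bases 985 to 1044) and the HSC82 stretch (chrXIII:633327-633386, plus strand, coding bases 973 to 1032) differed at 4 bases, the median for such stretches of 60 bases.
SSA1: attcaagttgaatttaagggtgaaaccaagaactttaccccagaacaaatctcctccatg
SSA2: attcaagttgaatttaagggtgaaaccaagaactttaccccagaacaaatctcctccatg
HSP82: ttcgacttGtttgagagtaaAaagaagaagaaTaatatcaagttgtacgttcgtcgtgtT
HSC82: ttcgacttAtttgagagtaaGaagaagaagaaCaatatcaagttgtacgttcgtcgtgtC
Between HSP82 and HSC82 identity was 91.7%, and 6.39% of the 50-nt windows of HSP82 and 0.689% of its 100-nt windows occur in HSC82. The other 6 genes shared no 50-nt window with any chaperone gene of the set. SSA1 also overlaps another feature, YAL004W, over 33.6% of its length, and the shared windows of SSA1 given above include this part. YAL004W had 0 counts in every library, since reads in the overlap were not assigned, and the level of SSA1 per kilobase uses the 1281 bases that no other feature covers.

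The DNA before each gene was searched for the motifs of both stress pathways, and parts of it are shown for some of the genes. Matches outside the printed stretches, as in HSP82, HSC82 and SSA4, are not shown. The DNA before SSA1, SSA2 and HSP26 is not printed. Heat shock elements were searched in the 500 bases before the gene as TTCNNGAANNTTC or GAANNTTCNNGAA (3 units) and as TTCNNGAA or GAANNTTC (2 units, which also lie inside a match of 3). Stress response elements were searched as AGGGG or CCCCT, so that both strands were covered for each motif. Capitals mark the matches. The sequences are R64, read along the gene's strand: HSP104 chrXII:88313-88463 (plus), HSP78 chrIV:974363-974498 (minus), HSP42 chrIV:806371-806451 (plus), SSA4 chrV:364329-364419 (plus), SSA3 chrII:86618-86708 (minus), HSP82 chrXVI:98765-98870 (minus) and HSC82 chrXIII:632110-632215 (plus).
HSP104: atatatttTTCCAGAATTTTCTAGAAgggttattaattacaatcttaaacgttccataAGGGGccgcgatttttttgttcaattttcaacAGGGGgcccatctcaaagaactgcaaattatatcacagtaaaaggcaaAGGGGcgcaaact
HSP78: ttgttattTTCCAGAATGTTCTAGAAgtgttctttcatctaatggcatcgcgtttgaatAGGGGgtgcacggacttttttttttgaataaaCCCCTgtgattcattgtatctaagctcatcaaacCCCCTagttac
HSP42: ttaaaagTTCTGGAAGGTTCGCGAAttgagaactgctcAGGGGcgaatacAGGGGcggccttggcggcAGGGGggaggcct
SSA4: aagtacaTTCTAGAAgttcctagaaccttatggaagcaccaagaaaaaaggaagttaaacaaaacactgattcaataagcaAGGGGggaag
SSA3: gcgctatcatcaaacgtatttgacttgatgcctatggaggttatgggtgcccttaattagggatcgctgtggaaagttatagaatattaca
HSP82: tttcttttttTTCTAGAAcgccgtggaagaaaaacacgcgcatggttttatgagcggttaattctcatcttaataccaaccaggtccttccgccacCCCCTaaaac
HSC82: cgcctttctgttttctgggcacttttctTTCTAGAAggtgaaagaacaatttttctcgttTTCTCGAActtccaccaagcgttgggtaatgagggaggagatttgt
The stretches of HSP104, HSP78 and HSP42 each open with 2 overlapping 3-unit matches and go on with 3 stress response elements. A 3-unit heat shock element lay before 5 of the 10 genes, HSP104, HSP78, HSP42, SSA1 and SSA2, against 1.48% of all 6000 windows of that length. At least 3 stress response elements lay before 5 genes, HSP104, HSP78, HSP26, HSP42 and SSA4, against 1.83% of all windows. The constitutive genes SSA2 and HSC82 had no AGGGG or CCCCT in the window, and SSA3 had no match to any of these motifs there. Over all windows, 34.1% held at least 1 stress response element and 35.2% at least 1 of the 2-unit matches, so most windows lack each. HSP82 held 2 and HSC82 held 3 of the 2-unit matches. At least 2 were found in 8.37% of all windows and at least 3 in 1.78%. A match is a description of the letters and not a site.

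**Figure D1:**
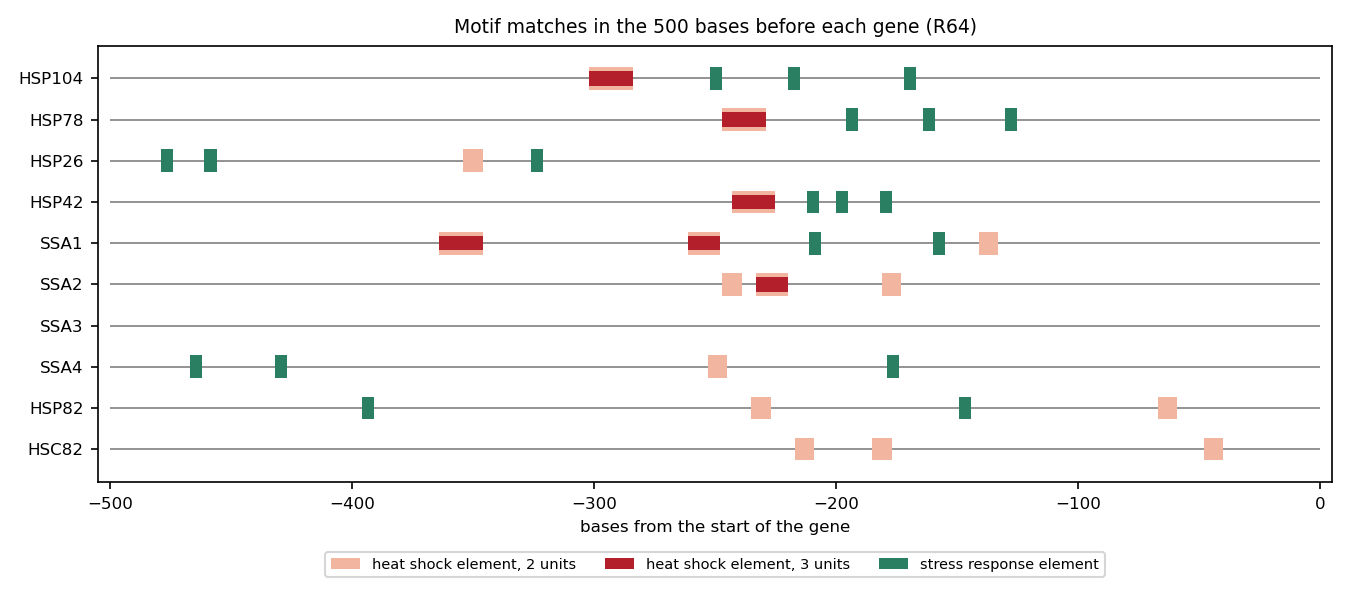
Matches to the heat shock element (2 or 3 units) and the stress response element in the 500 bases before each chaperone gene, plotted by distance from the start of the gene in bases. HSP104, HSP78 and HSP42 share a 3-unit element followed by 3 stress response elements, and the line of SSA3 is empty.

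In untreated cells, HSP78 and HSP82 were higher in ubc9-1 than in WT. HSP78, the disaggregase of the mitochondrial matrix, had 27.4 and 15.7 CPM in untreated WT and 74.8 and 55.9 in untreated ubc9-1. The groups did not overlap. HSP78 rose 3.04-fold (log2 1.60, SE 0.337, edgeR adjusted p = 0.0235). HSP82, which encodes the stress-induced Hsp90, had 95.3 and 80.2 CPM in WT and 263 and 244 in ubc9-1. The replicates lay close together in both strains, and HSP82 rose 2.89-fold (log2 1.53, SE 0.337, edgeR adjusted p = 0.0263). These were 2 genes called higher of 10 and 0 called lower, and of all features tested 2.29% were called higher and 2.4% lower.

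The other 8 genes did not pass the threshold in untreated cells, though all 10 log2 values were above 0, as were those of 3113 of the 6115 features tested. HSP26, a small heat shock protein gene, had 13.5 and 4.44 CPM in WT and 28.8 and 16.9 in ubc9-1 (log2 1.37, SE 0.450, edgeR adjusted p = 0.0926). HSP42, the other cytosolic small heat shock protein, had 23.8 and 8.93 in WT and 46.5 and 27.4 in ubc9-1 (log2 1.19, SE 0.414, edgeR adjusted p = 0.109). For both genes the first WT library lay nearer to the lower ubc9-1 library than to its own replicate. HSP104, which encodes the main disaggregase of the cytosol, had 106 and 59.3 CPM in WT and 202 and 133 in ubc9-1 (log2 1.02, SE 0.376, edgeR adjusted p = 0.128). SSA4 overlapped between strains, with 16.0 and 5.49 in WT and 33.8 and 14.2 in ubc9-1, and so did SSA3 (log2 1.17 and 0.77). SSA1 and HSC82 did not overlap and had log2 values of 0.84 and 0.79 (edgeR adjusted p = 0.155 and 0.213). At the other end, constitutive SSA2 had 240 and 239 CPM in WT and 251 and 322 in ubc9-1 (log2 0.26, 95% interval -0.47 to 0.99). The median log2 value was 1.19 over the 7 stress-induced genes, 0.52 over SSA2 and HSC82, and 0.02 over all features. Both ubc9-1 libraries were above both WT libraries for 8 genes, where 24.8% of all features had this pattern and 22.6% the opposite one, and 8 genes had an unadjusted p under 0.05, against 22.7% of all features.

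The 2 calls rested on few libraries, and both were lost in a fit of only the 4 libraries compared (adjusted p = 0.0574 for HSP78 and 0.0940 for HSP82). HSP78 had an adjusted p of 0.0757 without the second untreated WT library and of 0.0516 without the first untreated ubc9-1 library, in a range of 0.000121 to 0.0757 over 15 alternative settings. HSP82 had an adjusted p between 0.0530 and 0.0758 without the first or second untreated WT library, the second untreated ubc9-1 library or either treated ubc9-1 library, in a range of 6.38e-05 to 0.0940. Without the first untreated WT library, HSP26 and HSP42 had log2 values of 2.36 and 2.05. Over all alternatives the log2 values of these genes ranged from 0.76 to 2.36 and from 0.64 to 2.07. Scaling by snoRNA genes called all 10, but it moved the median of all features to 0.97.

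**Figure D2:**
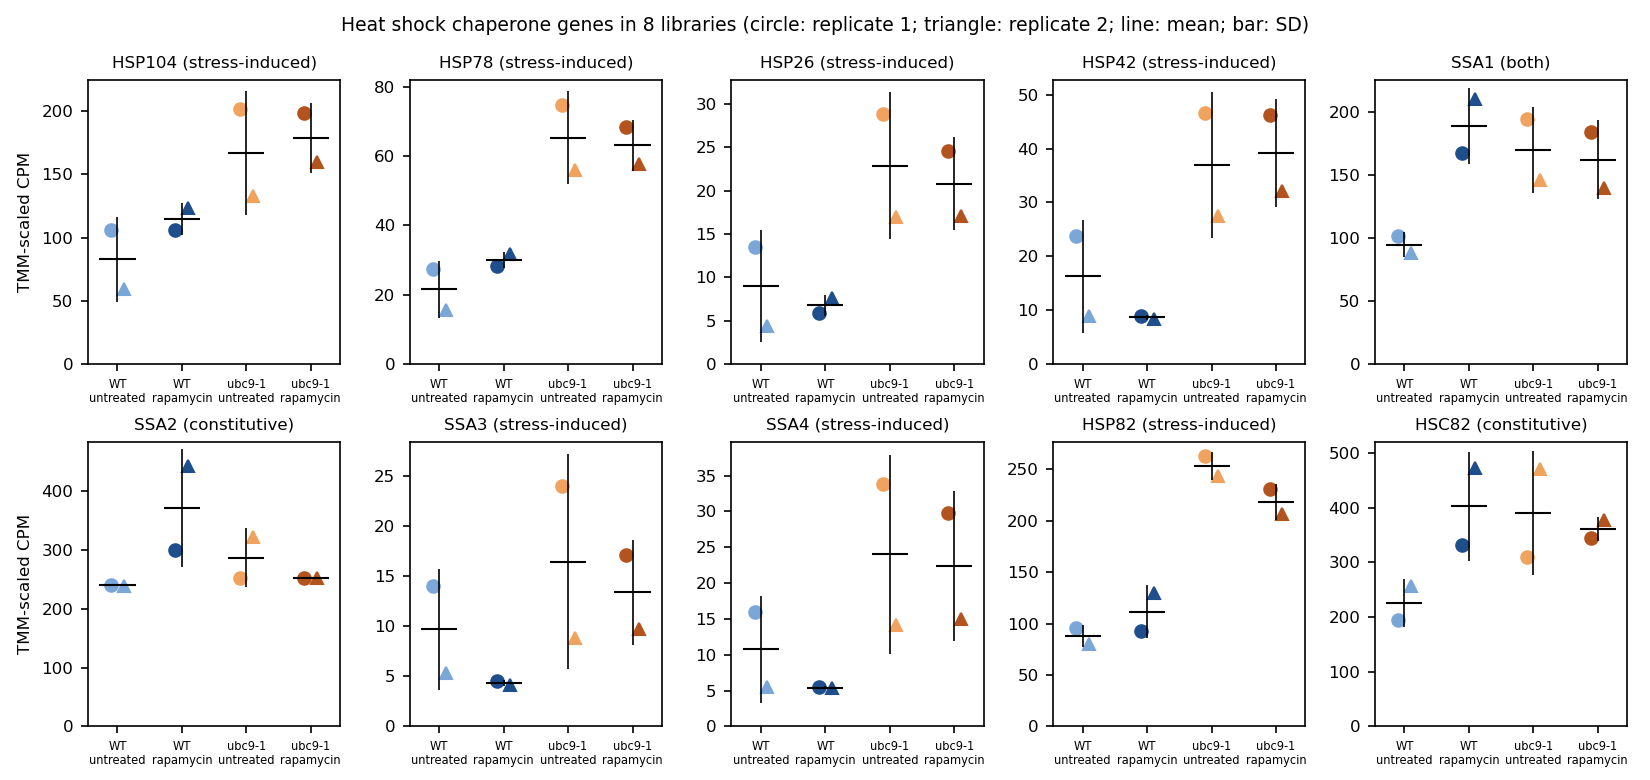
TMM-scaled CPM (linear axis from 0) of each chaperone gene in the 4 groups; circles are first and triangles second replicates, lines are means and bars SD (n = 2). HSP82 in ubc9-1 lies at 206 to 263 CPM against 80.2 to 130 in WT, whereas SSA2 in ubc9-1, at 251 to 322, lies within its WT range of 239 to 441.

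Under rapamycin, HSP42 was higher in ubc9-1 than in WT. The 7 stress-induced genes had both ubc9-1 libraries above both WT libraries, and SSA1, SSA2 and HSC82 did not. HSP42 had 9.03 and 8.41 CPM in treated WT and 46.3 and 32.1 in treated ubc9-1. It rose 4.49-fold (log2 2.17, SE 0.425, edgeR adjusted p = 0.0263) and was the only chaperone gene called, where 1.24% of all features were called higher and 0.769% lower. SSA4 had 5.55 and 5.32 CPM in treated WT and 29.7 and 15.0 in treated ubc9-1, with a log2 difference of 2.04 (SE 0.511, edgeR adjusted p = 0.0548). SSA3 had 4.56 and 4.10 against 17.1 and 9.68 (log2 1.62, SE 0.507, edgeR adjusted p = 0.112). HSP26 had 5.89 and 7.64 against 24.6 and 17.1 (log2 1.62, SE 0.448, edgeR adjusted p = 0.0754). In each of these genes every treated ubc9-1 library lay above both treated WT libraries.

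The same held for HSP78, HSP82 and HSP104, with smaller log2 differences of 1.07, 0.97 and 0.64. All 7 stress-induced genes were thus higher in both ubc9-1 libraries, a pattern seen in 27.2% of all features, and 6 of them had an unadjusted p under 0.05, against 17.8% of all features. SSA1, SSA2 and HSC82 had log2 differences of -0.22 (95% interval -0.94 to 0.50), -0.56 (-1.29 to 0.18) and -0.16 (-0.93 to 0.62). SSA2, with 299 and 441 CPM in treated WT and 252 and 251 in treated ubc9-1, was lower in both ubc9-1 libraries, again a pattern of 27.2% of features. The median log2 difference was 1.62 over the stress-induced genes, -0.36 over SSA2 and HSC82 and 0.00 over all features. The HSP42 call was lost without any one of the 4 libraries compared, with adjusted p-values of 0.0526 to 0.203, and under scaling by total counts (0.0835), in a range of 4.00e-05 to 0.203 over the alternatives. The log2 differences of HSP26 and SSA4 ranged from 1.24 to 1.87 and from 1.49 to 2.47 over the alternatives. DESeq2 called 6 of the stress-induced genes, and over all features it called 190 higher and 153 lower.

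**Figure D3:**
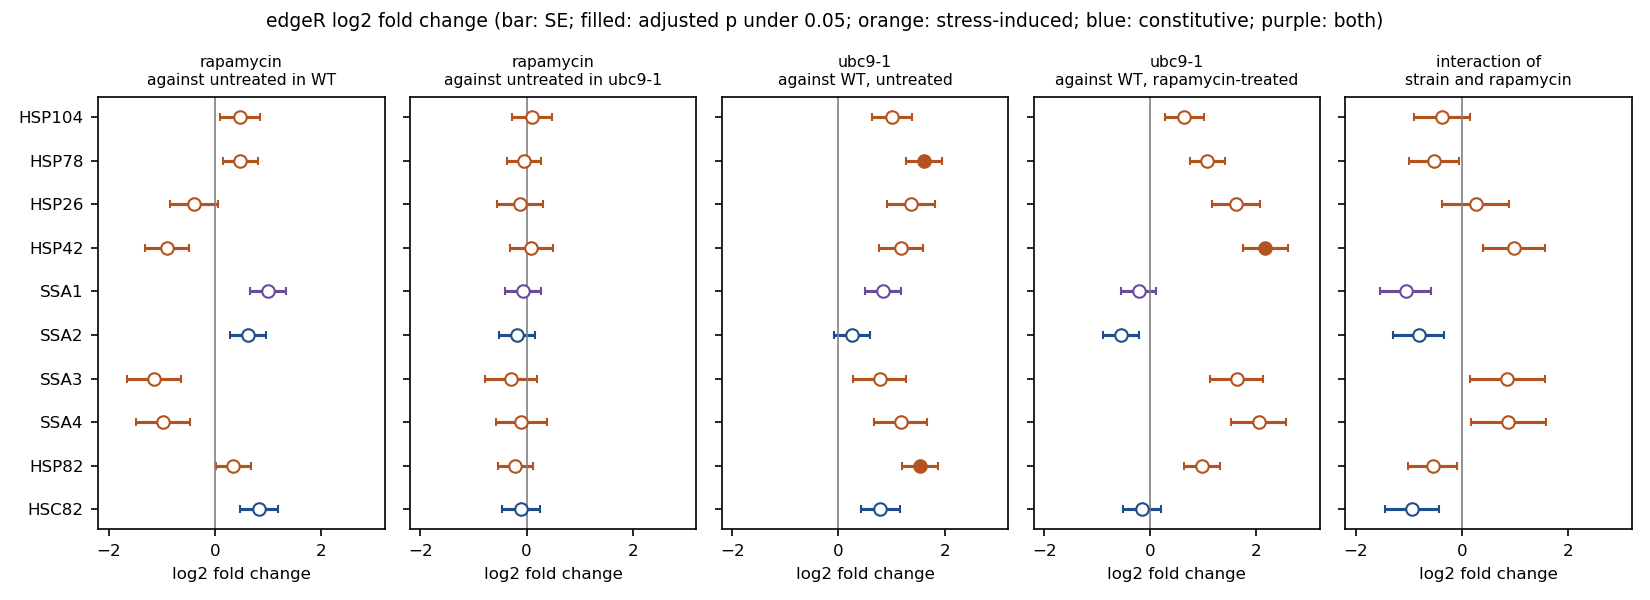
The edgeR log2 fold change of each chaperone gene (points) with its SE (bars) in the 4 comparisons and for the interaction; filled points have an adjusted p under 0.05, and colour gives the class. Filled points are HSP78 (1.60) and HSP82 (1.53) for untreated strains and HSP42 (2.17) for treated strains.

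In WT, no chaperone gene passed the threshold 30 min after rapamycin, where 8.77% of all features were called higher and 11.6% lower. The gene nearest to it was SSA1, with 102 and 87.7 CPM untreated and 168 and 210 treated. Both treated libraries were above both untreated ones, with a log2 value of 0.99 (SE 0.340, 95% interval 0.27 to 1.72, edgeR adjusted p = 0.0532). HSC82 had 194 and 257 untreated and 332 and 473 treated (log2 0.83, SE 0.362, edgeR adjusted p = 0.119). SSA2 had 240 and 239 untreated and 299 and 441 treated (log2 0.63, SE 0.342, edgeR adjusted p = 0.215). The constitutive genes and SSA1 thus had all treated libraries above all untreated ones, as did HSP78 among the stress-induced genes, and 32.2% of all features had this pattern.

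Log2 values of 4 stress-induced genes, SSA3, SSA4, HSP42 and HSP26, were below 0 in WT after rapamycin, and none was called. SSA3 had 13.97 and 5.38 CPM untreated and 4.56 and 4.10 treated (log2 -1.14, SE 0.507, edgeR adjusted p = 0.127). It was the only chaperone gene with both treated libraries below both untreated ones, a pattern of 28% of all features. SSA4, with 16.0 and 5.49 untreated and 5.55 and 5.32 treated (log2 -0.97), and HSP42, with 23.8 and 8.93 untreated and 9.03 and 8.41 treated (log2 -0.89), overlapped. In all 3 genes the first untreated library was high and the second close to the treated ones. Without the second untreated WT library, HSP42, SSA3 and SSA4 had log2 values of -1.44, -1.68 and -1.55. Without the first, these genes had -0.06, -0.34 and -0.04. Over all alternatives their adjusted p-values ranged from 0.0220 to 0.938, 0.0248 to 0.713 and 0.0481 to 0.969. The values of HSP104, HSP78, HSP82 and HSP26 were 0.47, 0.48, 0.35 and -0.38. Of the 10 genes, 3 had an unadjusted p under 0.05, as had 34.5% of all features. DESeq2 called 1, SSA1, and over all features it called 587 higher and 849 lower. SSA1 was called by edgeR without either untreated ubc9-1 library (adjusted p = 0.0404 and 0.0451), in a range of 0.00436 to 0.258 over its alternatives.

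In ubc9-1, no chaperone gene passed the threshold 30 min after rapamycin, where 0.834% of all features were called higher and 0.654% lower. Log2 values ran from -0.29 for SSA3 to 0.10 for HSP104, with a median of -0.11. HSP82, with 263 and 244 CPM untreated and 231 and 206 treated (log2 -0.21, 95% interval -0.92 to 0.49), was the only gene whose treated libraries did not overlap the untreated ones, where 19.7% of all features were lower in both and 19.7% higher in both. No chaperone gene had an unadjusted p under 0.05, and DESeq2 called 0. Intervals as wide as -0.79 to 0.65 for SSA1 and -1.14 to 0.95 for SSA4 do not show that rapamycin had no effect in this strain.

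The difference between the responses of the strains, the interaction, was not called for any chaperone gene, where 0.131% of features were called higher in ubc9-1 and 0.0327% lower. SSA1 had the lowest value, -1.06 (SE 0.477, 95% interval -2.09 to -0.04, edgeR adjusted p = 0.337), and was the only one with an unadjusted p under 0.05. HSC82 and SSA2 had -0.95 and -0.82, and HSP42, SSA4 and SSA3 had 0.98, 0.87 and 0.85. DESeq2 called 0. These comparisons share libraries, so their values are not independent of each other.

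Within a library, the ratio of counts of 1 family member to another does not depend on the scaling between libraries. For every 100 counts of HSC82, HSP82 had 49.0 and 31.2 in untreated WT and 28.1 and 27.4 in treated WT. In ubc9-1 it had 84.8 and 51.8 untreated and 66.9 and 54.7 treated, above both WT libraries of the same treatment in each case. The ratio was 1.70-fold higher in untreated ubc9-1 and 2.18-fold higher in treated ubc9-1 than in WT (exact permutation p = 0.333 for each, two-sided, n = 2 a group, the smallest p that 2 against 2 libraries can give). SSA4 had 1.85 and 1.20 counts for every 100 of SSA2 in treated WT and 11.8 and 5.98 in treated ubc9-1, a 5.61-fold difference with the same exact permutation p of 0.333. In untreated cells SSA4 had 6.68 and 2.30 in WT and 13.5 and 4.41 in ubc9-1 for every 100 of SSA2, and the strains overlapped. SSA3 to SSA2 was 4.29-fold higher in treated ubc9-1 than in treated WT without overlap. In WT, rapamycin went with a 2.62-fold lower ratio of SSA4 to SSA2 and a 3.04-fold lower ratio of SSA3 to SSA2, again without overlap and with an exact permutation p of 0.333. Without the first untreated WT library these log2 ratio differences of -1.39 and -1.61 came to -0.62 and -0.92. SSA1 to SSA2 ranged from 36.7 to 77.3 for every 100 over all libraries, and because the pair shares so much sequence its ratio is uncertain. Counts of SSA2 can include reads of SSA1, since 58.2% of the 50-nt windows of SSA2 occur in SSA1. The ratios of SSA4 and SSA3 to SSA2 are limited by this too. All 16 ratio comparisons had an exact permutation p of 0.333 or more, so none could pass a threshold of 0.05.

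**Figure D4:**
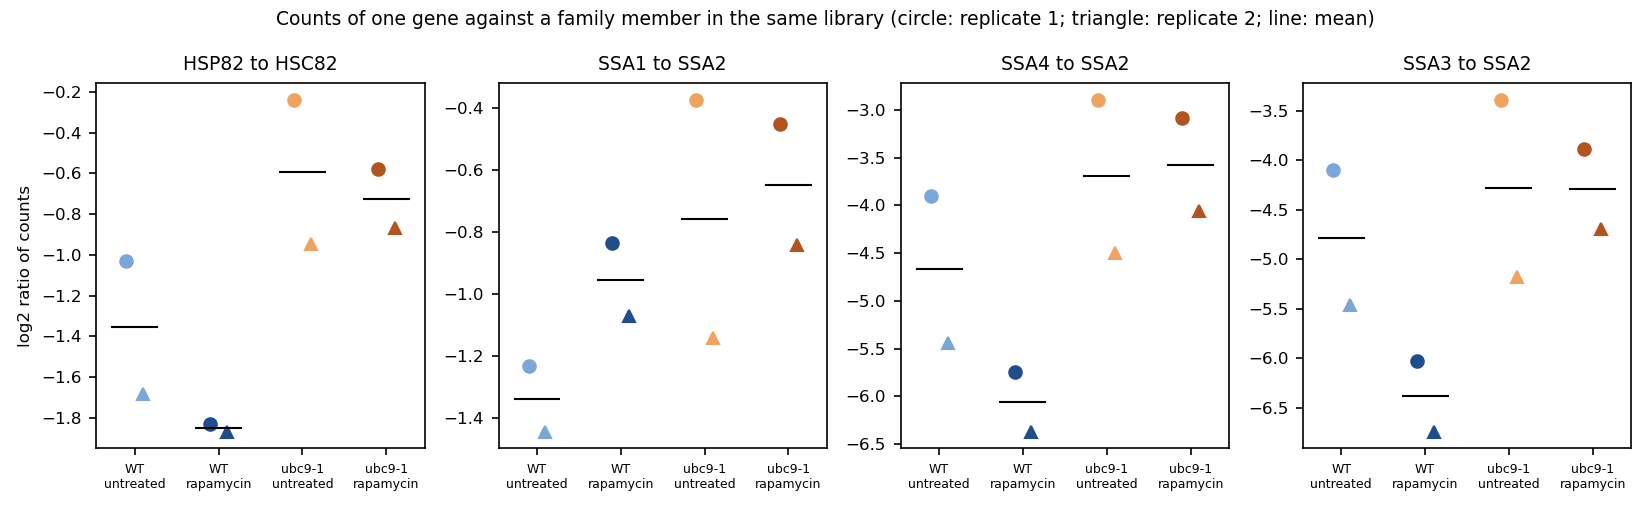
Log2 ratio of counts of a chaperone gene to a constitutive family member in each library (circle, first replicate; triangle, second; line, mean of 2). The HSP82 to HSC82 ratio in ubc9-1 lies above both WT libraries of the same treatment, and the SSA4 and SSA3 ratios to SSA2 are lowest in treated WT.

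Over the 8 libraries, the highest correlations lay among the stress-induced genes. SSA4 correlated with HSP42 and with SSA3 at a Pearson r of 0.98 each, HSP26 with HSP42 at 0.97, and HSP78 with HSP82 and with HSP104 at 0.96 each. SSA2 correlated with HSC82 at 0.73, and with SSA3 at -0.60. SSA1 correlated with HSP104 at 0.74, with HSC82 at 0.67 and with HSP78 at 0.64, and HSC82 with HSP82 at 0.53. These values describe log2 CPM over 8 libraries that mix differences between groups with those between replicates, and that share scaling factors. Among 4583 features with a mean count of at least 50, the features most like HSP104 were TPS2, NTH2 and GRE3 (r = 0.985, 0.980 and 0.971), and those most like SSA4 were HSP42, SSA3 and HOR7 (0.982, 0.977 and 0.971). TPS2 and NTH2 encode enzymes of trehalose synthesis and breakdown, and GRE3 an aldose reductase. The features most like HSP82 were YML119W, SPO12 and RNR3 (0.976, 0.974 and 0.967), and those most like HSC82 were DCW1, VPS70 and HNT1 (0.976, 0.973 and 0.964).

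**Figure D5:**
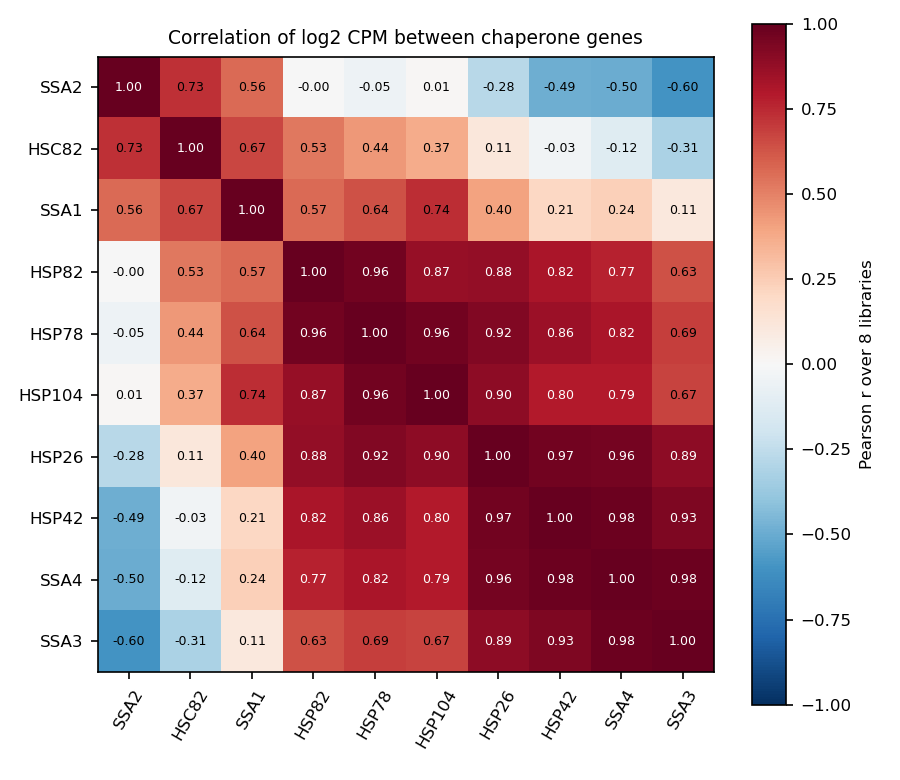
Pearson r of log2 CPM between chaperone genes over the 8 libraries, as a colour scale from -1 to 1 with the value in each square. The stress-induced genes have r of 0.63 to 0.98 with each other, and SSA2 has values of -0.60 to 0.01 with them. Other pairs also lie in the range of 0.63 to 0.98, such as SSA1 with HSP104 (0.74) and SSA2 with HSC82 (0.73).

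Of 69 genes in 8 further lists of chaperones, their partners and their regulators, 15 were called in WT after rapamycin, a share of 21.7% that lay near the 20.4% of all features called there. Of the 7 regulators 2 rose: MSN2 by 0.91 (SE 0.285, edgeR adjusted p = 0.0379) and MSN4 by 1.13 (SE 0.344, edgeR adjusted p = 0.0323), the transcription factors of the general stress response. HSF1 had 102 and 93 counts untreated and 266 and 389 treated (log2 0.82, SE 0.334, edgeR adjusted p = 0.0963). Of 9 Hsp70 partners 3 rose, XDJ1 (1.43), SSE2 (1.32) and SIS1 (0.96); XDJ1 and SIS1 encode J-domain proteins and SSE2 a nucleotide exchange factor of the Hsp110 family. Of 10 Hsp90 co-chaperones, CDC37, which brings kinases to Hsp90, rose by 1.18, and CNS1 and PPT1 fell by 1.63 and 1.69. Of 7 mitochondrial chaperones, MDJ1, the J-domain partner of matrix Hsp70, rose by 1.43. The prefoldin subunits PAC10 and YKE2 fell by 1.11 and 1.98, the only calls among 14 chaperonin and prefoldin genes. Of 7 other heat shock genes, UBI4, the polyubiquitin gene, rose by 2.26 and HSP150, a cell wall protein, by 1.25, whereas HSP12 and HSP30, which encode membrane-associated proteins, fell by 1.52 and 1.59. None of the 7 ribosome-associated and 8 endoplasmic reticulum chaperones was called, with median log2 values of -0.37 and 0.46. The medians of the other 6 lists ran from -0.64 for the other heat shock genes to 0.82 for the regulators.

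No gene of these lists was called after rapamycin in ubc9-1, where the medians of the lists ran from -0.26 to 0.37, nor for the interaction. Calls were rare over all features in both comparisons, with 1.49% and 0.164%. Between untreated strains 3 of the 69 genes were called and between treated strains 3, or 4.35% each, against 4.69% and 2.01% of all features. Between untreated strains, HSP12 rose by 1.68 (edgeR adjusted p = 0.0308) and MDJ1 by 1.54 (0.0232) in ubc9-1, and SNL1, an Hsp70 exchange factor at the endoplasmic reticulum membrane, fell by 2.17 (0.0440). The median was 1.14 over the 7 other heat shock genes, all with log2 values above 0, and -0.46 to 0.53 over the remaining lists. Between treated strains, HSP12 rose by 3.16 (edgeR adjusted p = 0.00233), BTN2, which sorts misfolded proteins, by 1.88 (0.0285), and HSP10, the co-chaperonin of mitochondrial Hsp60, by 2.31 (0.0226). All 10 Hsp90 co-chaperones had log2 values above 0 there, with a median of 0.72 and no call, and the other heat shock genes had a median of 1.78. HSF1, MSN2 and MSN4 had log2 differences between untreated strains of 0.32, 0.04 and -0.36, and between treated strains of -0.68, -0.49 and -0.70, none of them called. Their values after rapamycin in ubc9-1 were -0.18, 0.38 and 0.79, and their interactions -1.01, -0.53 and -0.34, with no call.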

How the data were processed

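The authors aligned the reads and counted them per feature. TopHat2 2.0.13, featureCounts 1.4.6-p3 and the build R64 are named in the submitters' processing notes. The deposited values are raw counts; per the file headers, a read with several alignments counted at each of them, strand was ignored, and reads in overlapping features were not assigned. A deposited table of normalized values was not used. All 10 genes have the same coordinates in the R64 annotation, from which symbols and sequences were taken.

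The main test was the quasi-likelihood F test of edgeR 4.0.16 in R 4.3.3. It was fitted to all 8 libraries, with a coefficient for each group, TMM factors and filterByExpr (minimum count 10, 6115 features kept). Benjamini-Hochberg adjustment ran over all features of a comparison, and calls were made at 0.05. SE was derived from the log2 value and its F statistic, and is approximate. The interaction subtracts the WT response from that of ubc9-1. Ratios of counts, with 0.5 added to each count, were compared by an exact permutation test. The scripts were tested on simulated data for rapamycin in WT. Of 100 genes changed 2-fold 19 were called, and of 100 changed 4-fold 93, with 10 calls of unchanged features. Most 2-fold changes were thus missed in that simulation.

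Alternatives were DESeq2 1.42.0 size factors and Wald test, total counts, TMM factors from 68 snoRNA features, no filter, a fit of the 4 libraries compared, a replicate block, 3 counts added to ratios, and leaving out each library. The text names all 10 genes, HSF1, MSN2 and MSN4 throughout, for each further list the 2 highest and 2 lowest genes past the threshold, and for 4 genes the 3 features with the highest Pearson r. UBC9, ADE2, HIS3 and TRP1 were added as a check of the strains. The genes and lists were chosen with earlier results of these data known, so their counts are descriptions and not independent evidence. Sequences were handled with Biopython 1.88 (Python 3.11.15).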

Additional observations from a re-analysis of the deposited data

How the results depend on the processing

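Of 740 values of a chaperone gene under an alternative, 643 kept direction and side of the threshold, 53 passed it newly, 14 lost it and 30 changed sign, 19 of those for rapamycin in ubc9-1. With 2 libraries a group, standard errors of 0.330 to 0.508 on the log2 scale for rapamycin in WT limit what can be detected.

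The number of genes called higher for rapamycin in WT was 1 under total counts, no filter or the DESeq2 Wald test, 2 with a replicate block and 0 to 1 when leaving out 1 library; the number lower was 2 with the block and 0 to 3 when leaving out 1. For untreated strains it was 10 under snoRNA scaling, 8 with the block, 0 with only the 4 libraries compared and 0 to 3 when leaving out 1. For treated strains it was 0 under total counts, 2 under snoRNA scaling, 4 with no filter, 6 under DESeq2 or the block, 5 with only the 4 libraries and 0 to 3 when leaving out 1. Calls over all features moved with the setting too. For the strain comparisons they are given here only for the main fit and DESeq2. None are given for leaving out 1 library. Counts of chaperone genes without such a share beside them cannot set these genes apart. For rapamycin in WT the block raised the calls over all features in both directions. DESeq2 called 587 features higher and 849 lower there, against 536 and 712 in the main fit. For untreated strains it called 277 and 332 against 140 and 147, and for treated strains 190 and 153 against 76 and 47. Same-numbered libraries deviated together with r of 0.104 to 0.202 over 6115 features, but each comparison has only 2 pairs, so the numbers are not taken to pair samples.

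Total counts moved the median of all features to 0.52 for rapamycin in WT, 0.18 for untreated strains, -0.34 for treated strains and -0.56 for the interaction; snoRNA scaling moved it to 0.14, 0.97, 0.21 and -0.80, and to -0.64 for rapamycin in ubc9-1. Signs changed for HSP26 under total counts (rapamycin in WT 0.26, interaction -0.33) and snoRNA scaling (interaction -0.46). Under snoRNA scaling HSP104 and HSP42 for rapamycin in ubc9-1 were -0.45 each, and HSC82 for treated strains was 0.052. SSA4 for rapamycin in ubc9-1 was 0.016 under total counts.

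Leaving out 1 library gave ranges that include both signs for rapamycin in ubc9-1 in HSC82 (-0.38 to 0.22), HSP104 (-0.17 to 0.44), HSP26 (-0.47 to 0.30), HSP42 (-0.25 to 0.52), HSP78 (-0.25 to 0.18), SSA1 (-0.28 to 0.16), SSA2 (-0.35 to 0.00095), SSA3 (-0.85 to 0.60) and SSA4 (-0.67 to 0.66). The same held for HSP26 for rapamycin in WT (-0.99 to 0.58) and the interaction (-0.72 to 0.86), SSA4 for the interaction (-0.065 to 1.61), HSC82 for treated strains (-0.39 to 0.12) and SSA3 for untreated strains (-0.082 to 1.61). Among log2 ratios it held for rapamycin in ubc9-1 in HSP82 to HSC82 (-0.49 to 0.22), SSA1 to SSA2 (-0.28 to 0.49), SSA4 to SSA2 (-0.68 to 0.93) and SSA3 to SSA2 (-0.90 to 0.89; 8.47e-05 with 3 counts added), and for untreated strains in SSA3 to SSA2 (-0.40 to 1.397). The cause was not tested.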
